A study of Mus musculus with 44 samples.

Results

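The oxytocin precursor gene (Oxt) and the arginine vasopressin precursor gene (Avp) were followed across hypothalamus and rest of brain of mice studied for sodium craving. The pair was taken from the deposited value table as the features whose name, without its suffix, is OXT or AVP. This gave 2 features, 1 per gene, of 9554 features on 44 arrays. All mice were adult male C57/Bl6 animals, and RNA was taken from the hypothalamus and from the remaining brain of each animal. The treatments were ACTH, ACTH gratified, furosemide, furosemide gratified and none, the last called control here. In that order the hypothalamus groups held 5, 6, 4, 4 and 4 arrays and the brain groups held 4, 5, 4, 4 and 4 arrays. Furosemide is a loop diuretic, which sends sodium into the urine, and ACTH is released by the pituitary and acts on the adrenal gland. In studies of sodium appetite, gratified means that the animal was allowed to take salt; the labels give neither doses nor times nor the animal behind each array. Each array set tissue RNA labelled with Cy5 against a commercial universal mouse reference RNA labelled with Cy3, so a value is a log ratio of tissue over reference, taken as log2. Dyes were not swapped.

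Oxytocin and vasopressin are short peptides, made above all by large neurons of the paraventricular and supraoptic nuclei of the hypothalamus, whose axons release them into the blood from the posterior pituitary. Each is cut from a longer precursor that also yields a carrier protein, a neurophysin. Vasopressin makes the kidney hold back water and raises blood pressure, smaller vasopressin neurons act with corticotropin-releasing hormone on ACTH release, and oxytocin drives uterine contraction and milk ejection and in rats also promotes sodium loss by the kidney. The genes are neighbours on chromosome 2, on opposite strands and facing each other, and the RefSeq table lists 0 genes between them. Outside the hypothalamus, vasopressin is made in scattered cells of the amygdala and the bed nucleus of the stria terminalis, so the remaining brain is not free of it.

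The stretches of 250 bases before the 2 gene starts are shown because both genes stood high in the same tissue. They are RefSeq sequences of build GRCm38.p6, given 5′ to 3′ on each gene's own strand. The Oxt stretch is chr2:130575919-130576168, plus strand, and the Avp stretch is chr2:130582589-130582838, minus strand. Capitals mark matches to any of 3 motifs, searched on both strands. One is TGACC, part of the half-site that many nuclear receptors bind, which reads GGTCA on the other strand. The next is CACGTG, the E-box known as a site of clock proteins. The last is TGANTCA, a looser form of the site that AP-1 factors such as Fos and Jun bind, in which the middle base is C or G.

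Oxt: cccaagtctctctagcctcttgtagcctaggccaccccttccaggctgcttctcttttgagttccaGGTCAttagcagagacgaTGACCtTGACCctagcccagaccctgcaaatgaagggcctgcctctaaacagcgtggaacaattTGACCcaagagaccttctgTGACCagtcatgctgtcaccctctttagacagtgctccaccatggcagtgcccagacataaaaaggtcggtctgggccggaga

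Avp: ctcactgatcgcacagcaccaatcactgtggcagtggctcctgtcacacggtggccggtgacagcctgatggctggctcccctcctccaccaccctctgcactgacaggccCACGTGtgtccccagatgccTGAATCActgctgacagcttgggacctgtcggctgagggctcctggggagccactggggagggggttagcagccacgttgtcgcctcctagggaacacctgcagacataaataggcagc

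The Oxt stretch held TGACC or its reverse complement 5 times, the first base of the match nearest to the gene start lying at -83. Of 32851 promoter stretches of the same length, 35.2% held at least 1 such match and 0.0426% held 5 or more. The cut of 5 is the count in Oxt itself, so the last share is a description and no test. The Avp stretch held none of these letters. It held CACGTG with its first base at -139, a match found in 6.02% of the stretches, and TGANTCA with its first base at -119, a match found in 6.75%. The letters of that match are TGAATCA, with A in the middle, so it is outside the usual AP-1 site. A search for TGACGTCA (1.55% of the stretches) and AGAACA (16.1%) matched in neither. These matches describe letters and say nothing of binding.

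One array did not match its tissue label. Both precursors, and nearly all other genes that set hypothalamus and brain apart, lay at brain level on the array labelled hypothalamus ACTH gratified replicate 6. Its Oxt value was 0.15, against 2.43 to 3.06 on the other 22 hypothalamus arrays and -0.15 to 0.67 on the 21 brain arrays. Its Avp value was 0.47, against 2.15 to 3.05 on the other hypothalamus arrays and 0.15 to 1.19 on the brain arrays. The precursors of orexin (Hcrt, 0.34) and melanin-concentrating hormone (Pmch, 0.55), both made in the lateral hypothalamus, stood inside their brain ranges too, as did the feeding peptide gene Agrp (0.35), the hypothalamic transcription factor gene Nkx2-1 (0.46) and the cortical transcription factor gene Neurod2 (1.84). Over all 9554 features, 11 were higher on each of the other 22 hypothalamus arrays than on every brain array, Oxt and Avp among them, and this array lay with the brain for 10 of the 11 and between the tissues for 1. Of the 4 features that were lower on each of those arrays, it lay with the brain for 4. How this came about was not tested. The main values of Oxt and Avp that rest on it are therefore given with all arrays and without it. For other genes values are given without it, and the calls of pathway genes that differ with all arrays are named.

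**Figure D1:**
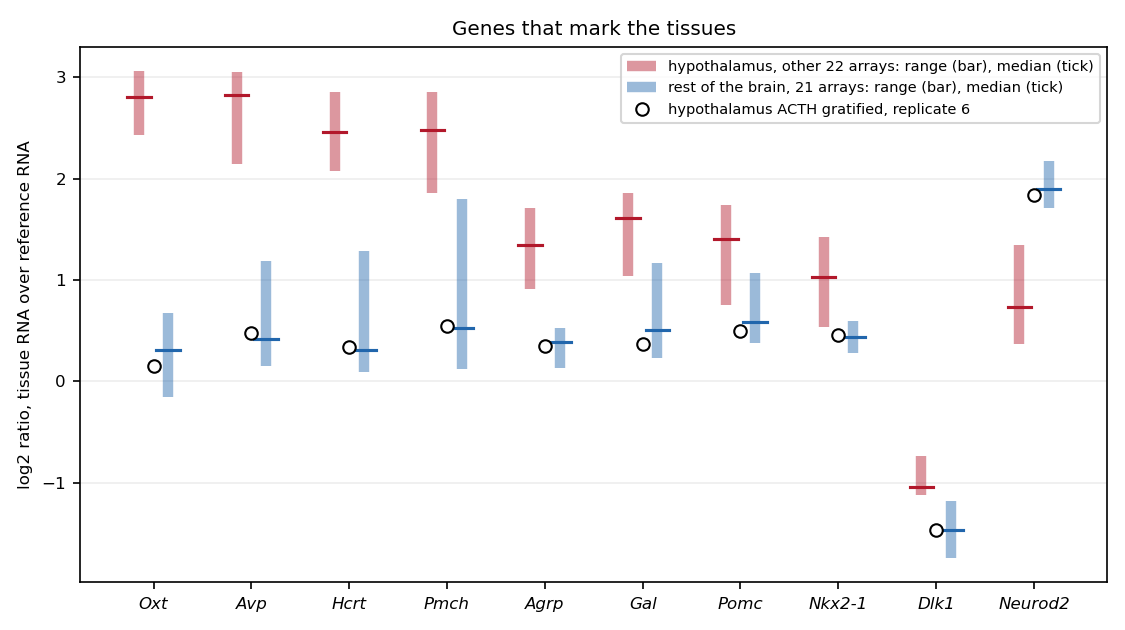
Log2 ratio of tissue RNA over reference RNA for 10 genes that mark the tissues, with the range (bar) and median (tick) over the other 22 hypothalamus arrays and over the 21 rest-of-brain arrays, and the array labelled hypothalamus ACTH gratified replicate 6 as an open circle. The circle lies inside the brain range for all 10 genes, at 0.15 for Oxt and 0.47 for Avp.

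Another array of the group, hypothalamus ACTH gratified replicate 4, correlated with the other hypothalamus ACTH gratified arrays at a mean r of 0.77 over all features, the lowest of the 44 arrays, and carried that group's lowest Oxt value among the arrays at hypothalamus level. Sample descriptions end in numbers of 3 kinds, and a number of 3 digits is carried by the 20 arrays of the ACTH and ACTH gratified groups alone; its meaning is not stated in the labels. These arrays had more values tied exactly with another feature (20.3 to 33.5% of an array, against 2.75 to 16.1% on the others). Why was not tested. Any difference between ACTH-treated and control or furosemide arrays therefore cannot be told apart from a difference between number series, while the tissues can be compared within 1 series for the 2 ACTH treatments. For control and furosemide all hypothalamus arrays carry 2-digit numbers and all brain arrays zero-padded ones, so within those treatments tissue and series cannot be told apart. The furosemide gratified arrays of each tissue carry both kinds.

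In the hypothalamus, Oxt and Avp stood far above the reference RNA in every group. The ACTH arrays had Oxt values of 2.53, 2.81, 2.80, 2.73 and 2.80. The ACTH gratified arrays had 2.55, 2.67, 2.78, 2.43, 3.02 and, on replicate 6, 0.15, so that even apart from this array the group spread wider than the others and overlapped all of them. The Oxt values were 2.88, 2.99, 2.97 and 2.63 with furosemide and 2.84, 2.87, 2.75 and 3.01 with furosemide gratified, against 2.89, 2.83, 3.06 and 2.72 in controls. Those last 3 groups covered nearly the same span.

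The hypothalamus Avp values with ACTH gratified were 2.53, 2.15, 2.57, 2.22, 2.91 and, on replicate 6, 0.47, and with ACTH 2.68, 2.82, 2.83, 2.71 and 2.72, against 2.93, 2.86, 3.02 and 2.79 in controls. Leaving replicate 6 aside, 4 of 5 ACTH gratified arrays lay below every control and replicate 5 lay among the controls, while 3 of 5 ACTH arrays lay below every control. With furosemide they were 2.83, 3.02, 3.01 and 2.74 and with furosemide gratified 2.90, 2.85, 2.75 and 3.05, over nearly the span of the controls.

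In the rest of the brain both features lay far lower, closer to the reference RNA. The brain median was 0.31 for Oxt and 0.42 for Avp, and Avp stayed above 0 on every brain array (0.15 to 1.19). The Oxt values were 0.48, 0.50, 0.33 and 0.33 with ACTH and 0.19, 0.44, 0.41, 0.67 and 0.30 with ACTH gratified. Furosemide arrays had 0.56, 0.55, 0.26 and 0.19 for Oxt and furosemide gratified arrays 0.26, 0.24, -0.15 and 0.10, against 0.17, 0.31, 0.03 and 0.34 in controls. Each treated group overlapped the controls. The Avp values were 0.60, 0.36, 0.51 and 0.27 with ACTH and 0.41, 0.68, 0.40, 0.64 and 0.36 with ACTH gratified. Furosemide arrays had 1.19, 1.03, 0.15 and 0.56 for Avp and furosemide gratified arrays 0.77, 0.37, 0.33 and 0.51, against 0.50, 0.31, 0.42 and 0.42 in controls. Brain furosemide replicates 1 and 2 carried the 2 highest Avp values of the brain, and replicate 3 the lowest.

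**Figure D2:**
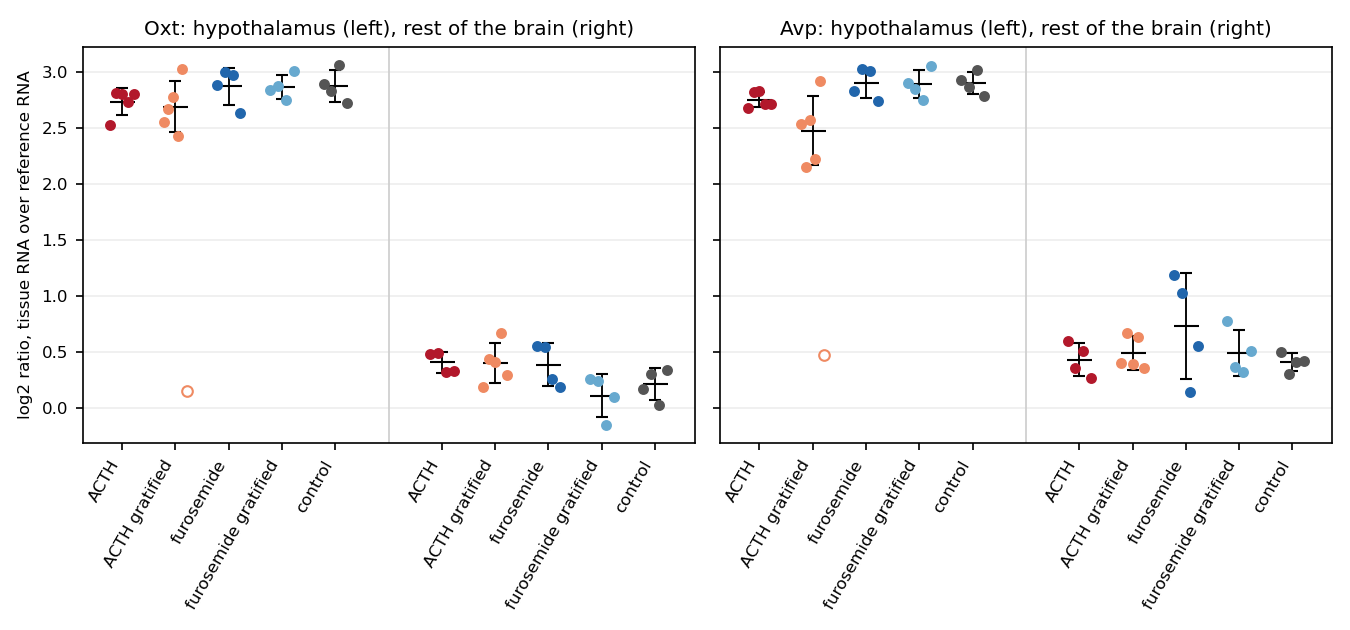
Log2 ratio of tissue RNA over reference RNA for Oxt (left) and Avp (right) on each of the 44 arrays, by tissue and treatment. Points are arrays, horizontal lines are group means and bars are 1 SD, and the open circle is hypothalamus ACTH gratified replicate 6, which is left out of its group's mean and SD. Apart from that circle, every hypothalamus array lies at 2.15 or higher and every brain array at 1.19 or lower.

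Ordered by their means with the lowest first, the Oxt levels in the hypothalamus were 2.27 ± 1.06 (ACTH gratified), 2.73 ± 0.12 (ACTH), 2.87 ± 0.11 (furosemide gratified), 2.87 ± 0.17 (furosemide) and 2.87 ± 0.14 (control, SD, n = 6, 5, 4, 4 and 4). Without replicate 6 the ACTH gratified mean was 2.69 ± 0.23 (SD, n = 5). The order for Avp was 2.14 ± 0.86 (ACTH gratified, 2.48 ± 0.31 without replicate 6), 2.75 ± 0.07 (ACTH), 2.89 ± 0.12 (furosemide gratified), 2.90 ± 0.10 (control) and 2.90 ± 0.14 (furosemide). Between neighbours in these orders, the gap passed the larger of the 2 SDs only between furosemide gratified and ACTH, by little, and between the lowest hypothalamus group and the highest brain group. Among the brain groups no neighbours differed by more than their SD, with Oxt means, the highest first, of 0.41 ± 0.09 (ACTH), 0.40 ± 0.18 (ACTH gratified), 0.39 ± 0.19 (furosemide), 0.21 ± 0.14 (control) and 0.11 ± 0.19 (furosemide gratified). Brain Avp means were 0.73 ± 0.47 (furosemide), 0.50 ± 0.15 (ACTH gratified), 0.50 ± 0.20 (furosemide gratified), 0.44 ± 0.15 (ACTH) and 0.41 ± 0.08 (control).

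Hypothalamus exceeded brain for both genes under every treatment. Tests were made with limma across all 9554 features, with Benjamini-Hochberg adjustment and a threshold of 0.05, and p-values measure the spread between arrays, since no label says whether arrays of a group come from separate animals. In controls Oxt was 6.32-fold higher in hypothalamus than in brain, a log2 difference of 2.66 ± 0.28 (SE, limma adjusted p = 3.75e-08), and the SE was 0.11 without replicate 6. Avp was 5.61-fold higher in control hypothalamus than in control brain, with a log2 difference of 2.49 ± 0.25 (SE, limma adjusted p = 1.50e-08). Both of the 2 genes were thus called, where 2.82% of all features were called in this comparison (2.91% without replicate 6). In both genes 4 of 4 hypothalamus control arrays lay above every brain control array. The share of all features separated so within 1 treatment, here or below, was not counted. Over all arrays without replicate 6, 11 of 9554 features were higher on every hypothalamus array than on every brain array, the pair among them. With the number series as a term in the fit over all 44 arrays (replicate 6 included), which the mixed furosemide gratified groups make possible, the control difference was 2.73 ± 0.42 for Oxt and 2.63 ± 0.37 for Avp (SE, limma adjusted p = 0.00039 and 0.000134).

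With furosemide the log2 difference between hypothalamus and brain was 2.48 ± 0.28 for Oxt and 2.17 ± 0.25 for Avp (SE, limma adjusted p = 6.23e-07 for each), and 2.47% of all features were called (2.74% without replicate 6). With furosemide gratified it was 2.75 ± 0.28 for Oxt and 2.39 ± 0.25 for Avp (SE, limma adjusted p = 3.32e-08 for each), beside 1.63% of all features (1.79% without replicate 6). The groups did not overlap in either. With the series term the furosemide difference was 2.55 ± 0.42 for Oxt and 2.31 ± 0.37 for Avp (SE, limma adjusted p = 0.000909 and 0.000835), and the furosemide gratified difference was 2.73 ± 0.30 for Oxt and 2.36 ± 0.26 for Avp.

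Within the ACTH arrays, which share a number series, hypothalamus stood above brain by 2.32 ± 0.27 for Oxt and 2.31 ± 0.24 for Avp on the log2 scale (SE, limma adjusted p = 4.75e-07 and 5.16e-08), with 1.22% of all features called (1.44% without replicate 6). In the ACTH gratified arrays the difference was 1.86 ± 0.24 for Oxt and 1.65 ± 0.22 for Avp with replicate 6 (SE, limma adjusted p = 9.79e-06 for each), and 0.555% of all features were called. Without replicate 6 it was 2.28 ± 0.10 for Oxt and 1.98 ± 0.13 for Avp (limma adjusted p = 1.49e-19 and 3.59e-14), the groups no longer overlapped, and 1.59% of all features were called. With all arrays and only these 2 groups in the fit, neither gene passed (limma adjusted p = 0.271 for Oxt and 0.192 for Avp).

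These folds are those of the array scale. Hypothalamus values lay close to the upper end of what the arrays recorded: on the 22 arrays without replicate 6, Oxt was 0.016 to 0.47 below the highest value of its own array (median 0.18) and Avp 0.026 to 0.73 below it (median 0.14). Brain values of Oxt lay mostly among the tied ones, and those of Avp less often. Oxt was between the quartiles of an array's tied values on 15 of 21 brain arrays and Avp on 9 of 21, against 0 of 22 hypothalamus arrays for each. On the other brain arrays Avp lay above the upper quartile. The share of all features between these quartiles was not counted. A brain value was itself tied with another feature on 7 of 21 arrays for Oxt and 11 of 21 for Avp. How far both ends limit the folds was not tested, and in whole tissue fewer cells of a type and less RNA per cell cannot be told apart.

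Within the hypothalamus, Avp was lower in the ACTH gratified arrays than in controls, by an amount and a call that depend on replicate 6. With all arrays the log2 difference was -0.76 ± 0.27 (SE, limma adjusted p = 0.0658), a mean of 2.14 ± 0.86 in ACTH gratified hypothalamus and 2.90 ± 0.10 in control hypothalamus (SD, n = 6 and 4), which did not pass. Without replicate 6, a choice made after its values were seen, the difference was -0.42 ± 0.11, with a 95% interval of -0.66 to -0.18 (SE, limma adjusted p = 0.0209), and it passed. The value corresponds to 1.34-fold lower Avp in ACTH gratified hypothalamus, and 4 of 5 arrays lay below every control. For Oxt the difference was -0.61 ± 0.33 with all arrays (SE, limma adjusted p = 0.234) and -0.19 ± 0.11 without replicate 6 (adjusted p = 0.284), and it passed in neither. In this comparison 12.6% of all features were called with all arrays and 10.2% without replicate 6, the share beside which the 1 of 2 genes called after that removal stands.

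The Avp call was not firm even then. With replicate 6 already out, leaving out 1 further array of either group kept the call in 6 of 9 cases, with limma adjusted p between 0.00218 and 0.0721, and it was lost without control replicate 1, control replicate 3 or ACTH gratified replicate 2. Without replicates 4 and 6 together the Avp difference was -0.36 ± 0.11 (limma adjusted p = 0.027). With only the 2 groups in the fit and replicate 6 out, the limma adjusted p was 0.137. The ACTH gratified arrays also belong to another number series than the controls, so treatment and series cannot be told apart here.

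Marker lists of neighbouring regions were set beside the same comparison, in which 10.2% of all features were called without replicate 6. Without that array, 1 of 6 measured thalamus and habenula genes was higher in ACTH gratified hypothalamus and 3 were lower. The mean log2 ratio over the 6 genes ran from 0.52 to 0.64 on the ACTH gratified arrays, against 0.74 to 0.85 on the controls, without overlap. On the ACTH arrays, where Avp was not called, it ran from 0.38 to 0.73, also below every control. The mean over 7 striatum genes ran from 1.06 to 1.49 on the ACTH gratified arrays, against 1.14 to 1.64 on the controls, with overlap. Of 9 cortex and hippocampus genes 1 was lower, a share near that of all features, and none was called with all arrays. Their mean ran from 0.33 to 0.88 on the ACTH gratified arrays, against 0.48 to 0.90 on the controls, with overlap. Of 8 hypothalamic regional genes none was called, their mean running from 0.095 to 0.47 on the ACTH gratified arrays, against 0.30 to 0.44 on the controls. The part of these markers in the Avp difference was not tested.

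ACTH without gratification left neither gene past the threshold in the hypothalamus. The log2 difference between ACTH and control was -0.14 ± 0.11 for Oxt and -0.15 ± 0.11 for Avp without replicate 6 (SE, limma adjusted p = 0.405 and 0.42), the SEs being 0.34 and 0.28 with all arrays, where 10.5% of all features were called. The 95% intervals without replicate 6 ran from -0.36 to 0.08 for Oxt and from -0.39 to 0.09 for Avp. Between ACTH gratified and ACTH, 2 groups of one number series, Avp differed by -0.61 ± 0.25 with all arrays (limma adjusted p = 0.581) and by -0.27 ± 0.11 without replicate 6 (limma adjusted p = 0.518). For Oxt it was -0.47 ± 0.31 with all arrays and -0.04 ± 0.10 without replicate 6 (limma adjusted p = 0.707 and 0.874). Neither gene was called, where limma called 1 of 9554 features (0.0105%) with all arrays and 0 (0%) without replicate 6, 761 and 834 features having an unadjusted p under 0.05.

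Furosemide, with or without gratification, left neither gene past the threshold in the hypothalamus. Furosemide against control gave a log2 difference of -0.0057 for Oxt and 0.0015 for Avp, furosemide gratified against control -0.0088 for Oxt and -0.01 for Avp, and furosemide gratified against furosemide -0.0031 for Oxt and -0.01 for Avp. Without replicate 6 the SE of these differences was 0.11 for Oxt and 0.12 for Avp, and the 95% intervals stayed between -0.26 and 0.25. On the control arrays, however, Oxt already lay only 0.035 to 0.18 and Avp 0.063 to 0.11 below the highest value of the array. How far this limits a recorded rise, here and with ACTH, was not tested. With all arrays, whose pooled spread includes replicate 6, the SEs were 0.36 and 0.29. No call was made for either gene, beside 0.0209% of all features for furosemide against control, 0% for furosemide gratified against control (282 features with unadjusted p under 0.05 in limma) and 0.0105% for furosemide gratified against furosemide.

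**Figure D3:**
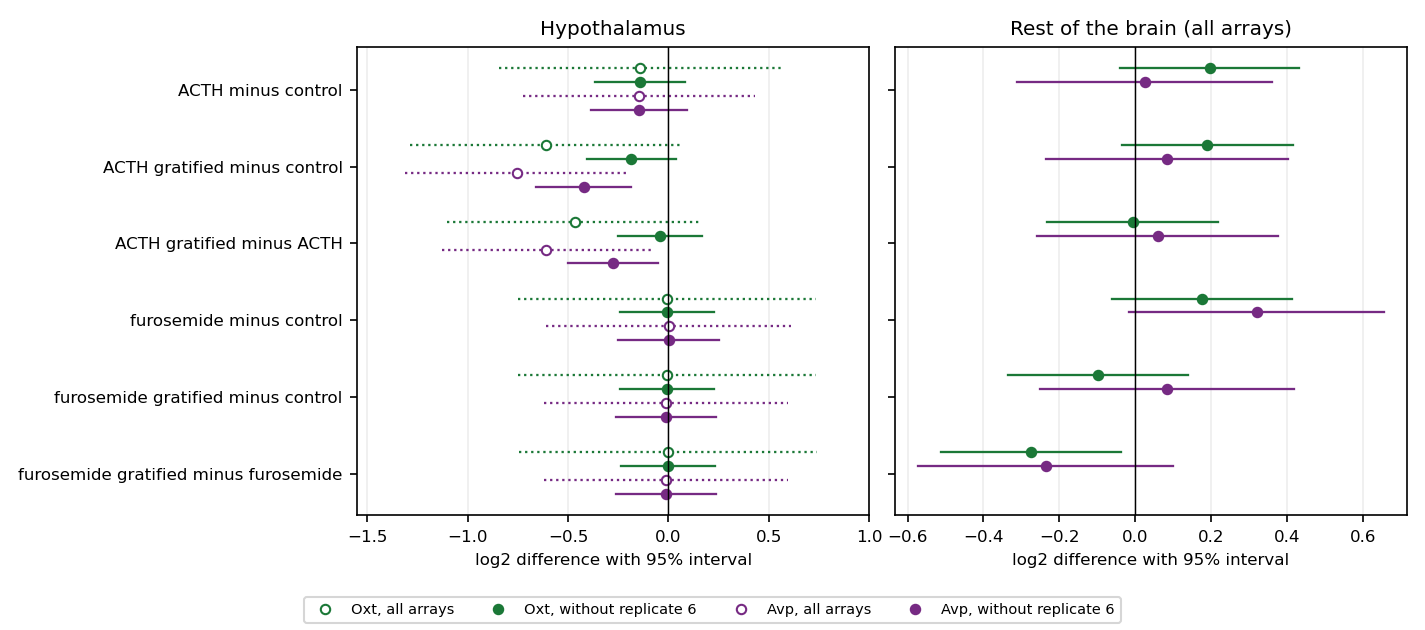
Log2 differences between treatments in hypothalamus (left) and rest of brain (right), with 95% intervals from limma, for Oxt and Avp. Open circles with dotted lines use all hypothalamus arrays, filled circles leave out hypothalamus ACTH gratified replicate 6, and the axes of the 2 panels differ in scale. The Avp difference of -0.42 between ACTH gratified and control hypothalamus is the filled circle whose interval stays farthest from 0.

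In the rest of the brain neither gene passed the test in any of 6 treatment comparisons. The ACTH arrays differed from control by 0.20 ± 0.11 for Oxt and 0.03 ± 0.16 for Avp (SE, limma adjusted p = 0.195 and 0.924), in a comparison where 30% of all features were called. ACTH gratified arrays differed from control by 0.19 ± 0.11 for Oxt and 0.08 ± 0.15 for Avp (SE, limma adjusted p = 0.179 and 0.694), beside 32.7% of all features. Between ACTH gratified and ACTH the difference was -0.0061 ± 0.11 for Oxt and 0.06 ± 0.15 for Avp, beside 0.0628% of all features.

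Furosemide gave the largest Avp difference of these brain comparisons, 0.32 ± 0.16 against control (SE, limma adjusted p = 0.437), with a mean of 0.73 ± 0.47 in furosemide brain and 0.41 ± 0.08 in control brain (SD, n = 4 each) and 0.0942% of all features called. It rested on replicates 1 and 2, at 1.19 and 1.03. On these 2 arrays Hcrt stood at 0.09 and 0.35 and Pmch at 0.57 and 0.67, while brain furosemide replicate 4, with an Avp value of 0.56, had the brain's highest Hcrt and Pmch values, 1.29 and 1.80. Avp was thus high on other arrays of this group than Hcrt and Pmch. Oxt, however, was also highest on replicates 1 and 2, at 0.56 and 0.55, against 0.26 and 0.19 on replicates 3 and 4. Gal, the galanin gene, stood at 0.93, 0.42, 0.28 and 0.52 on replicates 1 to 4. What sets these arrays apart was not tested. For Oxt, furosemide differed from control by 0.18 ± 0.11 (SE, limma adjusted p = 0.561). Furosemide gratified differed from furosemide by -0.27 ± 0.11 for Oxt (SE, limma adjusted p = 0.998) and by -0.24 ± 0.16 for Avp (adjusted p = 0.998), where limma called 0 features (0%) and 344 had an unadjusted p under 0.05. Furosemide gratified against control gave -0.10 ± 0.11 for Oxt and 0.08 ± 0.16 for Avp, again with 0 features called (0%) and 1827 with an unadjusted p under 0.05.

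Whether a treatment difference differed between the tissues was tested as an interaction over all 44 arrays. For ACTH gratified against control the hypothalamus difference minus the brain difference was -0.84 ± 0.33 for Avp and -0.80 ± 0.37 for Oxt on the log2 scale (SE, limma adjusted p = 0.427 and 0.473). Without replicate 6 these values were -0.51 ± 0.19 for Avp and -0.38 ± 0.15 for Oxt (limma adjusted p = 0.435 for each). Limma called 0 features (0%) in this interaction either way, 990 with all arrays and 1023 without replicate 6 having an unadjusted p under 0.05. The controls of the tissues belong to different number series, so this interaction also holds a difference between series. With the series as a term and replicate 6 out it was -0.65 ± 0.25 for Avp and -0.45 ± 0.20 for Oxt (SE, limma adjusted p = 0.767 for each). The other 5 interactions left neither gene past the threshold, the lowest limma adjusted p being 0.6 without replicate 6, for Avp with furosemide against control. Few features were called in these: 0% for ACTH against control and for furosemide gratified against control, 0.0209% for furosemide gratified against furosemide and 0.0628% for furosemide against control, the same with all arrays and without replicate 6. In the 2 with 0 calls, limma gave 688 and 910 features an unadjusted p under 0.05 without replicate 6. In the interaction of ACTH gratified against ACTH, 0.0314% of all features were called with all arrays and 0.0419% without replicate 6.

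The 2 genes were also compared by how much each moved, through the difference Oxt minus Avp on each array, which sets no level of one feature against the other but only compares groups. Over 17 group comparisons with an exact two-sided permutation test, none passed after Benjamini-Hochberg adjustment. With all arrays the lowest p was 0.0286, between hypothalamus and brain with furosemide gratified, where the design allows no smaller p (adjusted p = 0.486). Without replicate 6, Oxt minus Avp was higher by 0.24 in ACTH gratified than in control hypothalamus (0.21 ± 0.19 and -0.02 ± 0.05, SD, n = 5 and 4, exact permutation p = 0.0317, adjusted p = 0.135). It was higher by 0.23 than in ACTH hypothalamus, at -0.02 ± 0.09 (SD, n = 5, exact permutation p = 0.0159, adjusted p = 0.135), and higher by 0.30 than in ACTH gratified brain, at -0.09 ± 0.13 (SD, n = 5, exact permutation p = 0.0238, adjusted p = 0.135).

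Across hypothalamus arrays the 2 genes varied together. On the 22 arrays without replicate 6, both also lay close below the highest value of their own array, by a median of 0.18 for Oxt and 0.14 for Avp. Whether this shared upper end, or array scale, carries the correlations below was not tested. The 2 farthest arrays named below were picked by distance from the median of Oxt alone, not of Avp. Pearson's r was 0.96 over all 23 arrays, a value that rests on replicate 6, and 0.81 over the other 22 (permutation p = 3e-05, Spearman's rho 0.91, permutation p = 1e-05, the smallest that 100000 permutations give, adjusted p = 8.25e-05 and 3.67e-05 over 11 correlations), or 0.77 without the 2 arrays farthest from the median. With group means subtracted it was 0.80 (n = 22, permutation p = 3e-05). Within the 3-digit series it was 0.69 (n = 10, permutation p = 0.0272, rho 0.82) and fell to 0.40 without the 2 farthest arrays. Within the 2-digit series it was 0.94 (n = 10, permutation p = 6e-05, rho 0.94) and 0.95 without the 2 farthest arrays. In the rest of the brain r was 0.49 (n = 21, permutation p = 0.0253, adjusted p = 0.0332) and rho 0.37 (permutation p = 0.0987, adjusted p = 0.136). Without the 2 arrays farthest from the Oxt median, at -0.15 and 0.67, r was again 0.49. That removal kept the 2 highest Avp values, 1.19 and 1.03 on brain furosemide replicates 1 and 2, and the brain r without these was not computed. With group means subtracted the brain r was 0.58 (permutation p = 0.00443) and rho 0.65 (permutation p = 0.00166), with an r of 0.57 without the 2 farthest. Within its 3-digit series r was 0.56 (n = 9, permutation p = 0.117), and within its zero-padded series 0.70 (n = 9, permutation p = 0.0378) but -0.13 without the 2 farthest arrays, so within that series the relation rests on those 2.

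**Figure D4:**
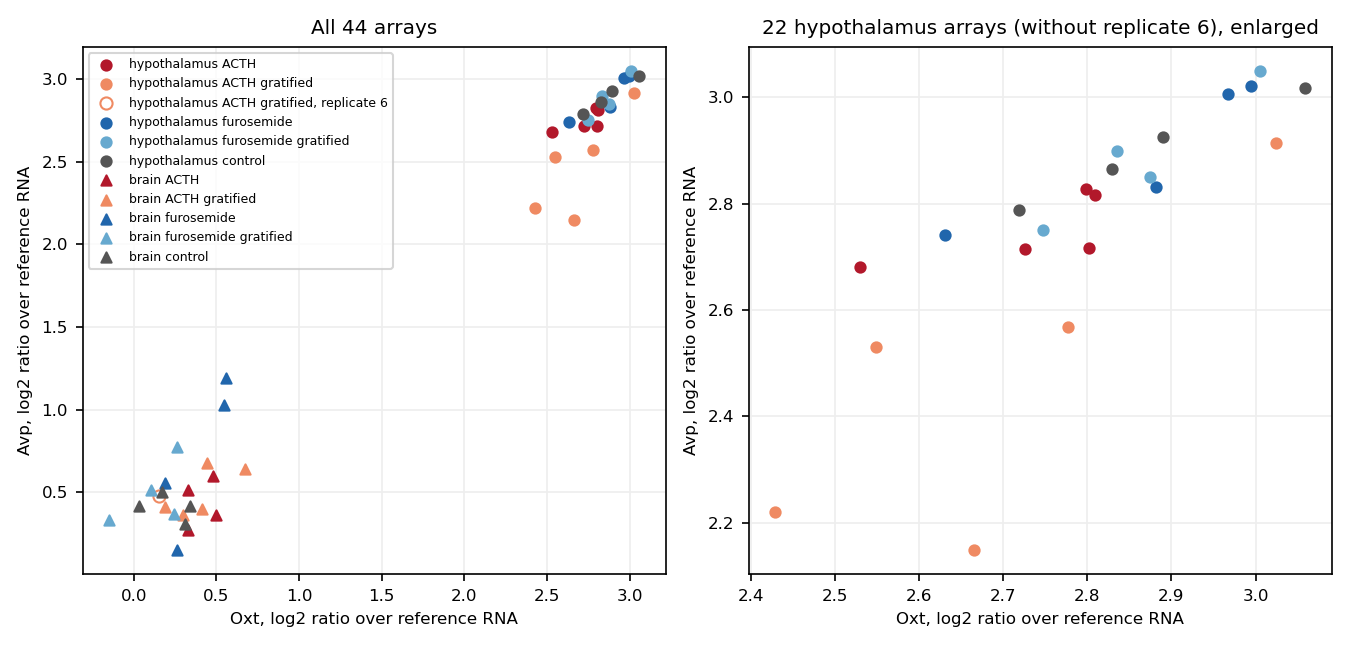
Avp against Oxt, both as log2 ratio over reference RNA, on all 44 arrays (left) and enlarged on 22 hypothalamus arrays without ACTH gratified replicate 6 (right). Circles are hypothalamus and triangles rest of brain, coloured by treatment, and the open circle is replicate 6, which lies among the brain arrays. On the right, 4 of 5 ACTH gratified arrays lie low for Avp at Oxt values between 2.43 and 2.78.

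The features whose pattern was most like the pair included other peptide genes of the hypothalamus, Hcrt before all. Over the 23 hypothalamus arrays, the 5 with the highest r to Oxt were Hcrt (0.98), Avp (0.96), Pmch (0.89), Trhde (0.88) and Gal (0.87), and to Avp Hcrt (0.97), Oxt (0.96), Pmch (0.90), Trhde (0.89) and Gal (0.88). Trhde encodes the enzyme that degrades thyrotropin-releasing hormone and Gal the neuropeptide galanin. The low values of replicate 6 carry much of these: on it Trhde stood at -1.02, below 0.24 to 1.12 on the other hypothalamus arrays and also below 0.45 to 1.38 on the brain arrays. Without it the 5 for Oxt were Hcrt (0.91), Mc1r (0.85), Ntsr2 (0.84), Nrsn1 (0.84) and Gal (0.82), with Avp in place 8 at 0.81. The 5 for Avp were Camk2b (0.86), Hcrt (0.82), Oxt (0.81), Cartpt (0.81) and the feature named S100P (0.79). Hcrt was thus first or next to first in every one of these orders. Mc1r, Ntsr2, Nrsn1, Camk2b and S100P, named only without replicate 6, stood high in both tissues. Their medians were 2.29, 2.39, 2.41, 2.44 and 2.14 in hypothalamus without replicate 6 and 2.17, 2.26, 2.39, 2.46 and 2.12 in brain. The part of array scale in these likenesses was not tested.

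Over the 10 group means the nearest patterns were those of Hcrt (r = 0.998 to Oxt and to Avp), Sytl4, which encodes a granule-docking protein, Ngb, which encodes neuroglobin, and Pmch, with r from 0.989 to 0.996, besides the pair itself at 0.995. Ngb ranged from 1.20 to 1.80 on the 22 hypothalamus arrays and from 0.37 to 1.09 on the brain arrays. Sytl4 ranged from 0.55 to 1.13 in hypothalamus and from 0.30 to 0.56 in brain. The 10 means fall into the 2 tissues, so these r are a description of a tissue difference, and the arrays share library and scale.

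Of the 4 receptors of the pair, the oxytocin receptor gene Oxtr and the vasopressin V1b receptor gene Avpr1b, known from the pituitary cells that make ACTH, were matched, and Avpr1a and Avpr2 were not. Neither receptor was called between hypothalamus and brain in any of 5 treatments: in controls the log2 difference was 0.03 ± 0.08 for Oxtr and 0.08 ± 0.07 for Avpr1b (SE, limma adjusted p = 0.935 and 0.721, without replicate 6). Both lay low, with medians of 0.53 (Oxtr) and 0.34 (Avpr1b) in hypothalamus without replicate 6 and of 0.53 and 0.27 in brain. Upper quartiles of an array's tied values reached 0.54 in hypothalamus and 0.56 in brain. How far low signal hides a receptor difference was not tested. Avpr1b was higher in ACTH than in control hypothalamus by 0.26 ± 0.08 (limma adjusted p = 0.0442 without replicate 6), beside 10.5% of all features called. It was also higher in brain, by 0.26 ± 0.06 in ACTH and by 0.33 ± 0.06 in ACTH gratified arrays against control (limma adjusted p = 0.00463 and 0.000361), beside 30% and 32.7% of all features. The median of an array's tied values was itself 0.31 to 0.41 on these brain arrays and 0.06 to 0.23 on brain controls. In hypothalamus it was 0.33 to 0.39 with ACTH and 0.12 to 0.41 in controls. Its part in the Avpr1b calls was not tested, and treatment and number series cannot be told apart in them. In ACTH gratified against control hypothalamus Oxtr differed by -0.02 ± 0.08 and Avpr1b by 0.16 ± 0.08 (limma adjusted p = 0.884 and 0.214).

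Among peptides that neurons of the same nuclei also make, 3 of 11 measured genes were higher in control hypothalamus than in control brain and none was lower, with a list median of 0.11 beside -0.01 over all features and 2.91% of all features called without replicate 6. They were Gal, by 1.18 ± 0.16, Trh, the thyrotropin-releasing hormone gene, by 0.69 ± 0.16, and Nts, the neurotensin gene, by 0.67 ± 0.16 (SE, limma adjusted p = 6.12e-06, 0.00656 and 0.00755, without replicate 6). Pdyn, which encodes the dynorphins that vasopressin neurons store, differed by 0.11 ± 0.18 (adjusted p = 0.9), and Cck, which encodes the cholecystokinin that oxytocin neurons store, by -0.38 ± 0.11 (adjusted p = 0.0645). Of 10 peptide or amine genes of other hypothalamic nuclei 9 were higher, with a list median of 0.80, led by Pmch at 2.33 ± 0.16 and Hcrt at 2.31 ± 0.14. A high hypothalamus level was therefore shared with these genes. The angiotensin precursor gene Agt was higher in control hypothalamus by 0.96 ± 0.23 (limma adjusted p = 0.0095), the 1 of 11 osmotic and release genes that was called, and the granule protein gene Scg2 was higher by 0.74 ± 0.22 (adjusted p = 0.0489), the 1 of 13 processing and granule genes, a call absent with all arrays (adjusted p = 0.0533). Of 10 transcription factor and nuclear receptor genes of these neurons, Nr4a1, an activity-induced gene, was lower by 0.79 ± 0.19, its log2 difference being -0.79 (adjusted p = 0.0118).

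In ACTH gratified against control hypothalamus without replicate 6, the comparison in which Avp passed, the counts of listed genes stand beside 10.2% of all features called, 642 lower and 337 higher, so calls leaned to lower in general. Of 13 processing and granule genes none rose and 3 fell, with a list median of -0.32 beside -0.01 over all features. These were Scg5, the chaperone of the convertase PC2, at -0.46 ± 0.10, Cpe, the carboxypeptidase that trims peptide ends, at -0.41 ± 0.11, and Pcsk5, a convertase, at -0.43 ± 0.14 (SE, limma adjusted p = 0.00478, 0.0226 and 0.049). Of 11 co-made peptides none rose and 2 fell, with a list median of -0.31, namely Trh at -0.56 ± 0.13 and Sst, the somatostatin gene, at -0.61 ± 0.17 (limma adjusted p = 0.00687 and 0.0216). The stored partners did not pass, Pdyn at -0.31 ± 0.13, Gal at -0.25 ± 0.13 and Cck at -0.30 ± 0.10 (limma adjusted p = 0.147, 0.222 and 0.0549).

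Of the transcription factor genes Fos, which marks recently active neurons, rose by 0.37 ± 0.07 (limma adjusted p = 0.00145) and none fell in that comparison, with a median of -0.01. The 1 of 10 called is near the 10.2% of all features. Of the osmotic and release genes none rose and 2 fell, Lnpep, which encodes the enzyme that breaks down oxytocin and vasopressin, at -0.53 ± 0.13, and Aqp4, the astrocyte water channel gene, at -0.55 ± 0.16 (limma adjusted p = 0.0089 and 0.0279). Of the 10 peptide genes of other nuclei, 1, Pmch, fell, again near that share, at -0.50 ± 0.11 (adjusted p = 0.0073), while Hcrt, at -0.27 ± 0.11, did not pass (adjusted p = 0.117). With all arrays, Pcsk5 was not called and Cartpt, Pomc, Ghrh and Nkx2-1 were called lower in addition. Between ACTH and control hypothalamus without replicate 6, Scg5, Cpe, Cadps, Trh, Lnpep and Pmch fell as well, beside 10.5% of all features called. With all arrays Trh and Pmch were not called there (limma adjusted p = 0.0637 and 0.326). All of these were read against controls of another number series, and treatment and series cannot be told apart.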

How the data were processed

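The deposited table holds 9554 features on 44 arrays as log2 ratios of tissue RNA (Cy5) over universal mouse reference RNA (Cy3); base 2 was assumed. Per the submitters' processing notes the authors used limma; its version, the background correction, normalization and centring are not stated there. Values ran from -2.65 to 3.17, with array medians from -0.24 to -0.05. Scanner files were not used here, so signal over background is unknown; precision is limited by the number of arrays. Names matched 8651 mouse symbols and 580 single synonyms of the RefSeq table.

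Groups came from the labels. Treatments were compared with lmFit and eBayes of limma 3.58.1 (R 4.3.3) in a model of all arrays of a tissue, tissues and interactions in one of all 44 arrays, with Benjamini-Hochberg adjustment over 9554 features and a threshold of 0.05; tested on simulated data. Tissues were compared unpaired. Where a listed gene has several features, the one with the widest spread was used. Exact permutation tests compared Oxt minus Avp, and correlations used 100000 permutations. Genes named by likeness are the 5 with the highest r, without features tied on most arrays; pathway genes are those past the threshold where a member passed, plus receptors, Pdyn, Gal and Cck, and genes named for single arrays were chosen after their values were seen. Members and lists were chosen with earlier results of these data known. Within a tissue, same-numbered arrays did not deviate together (median r 0.011 in hypothalamus and 0.0056 in brain). Whether the numbers pair hypothalamus with brain arrays was not tested. Alternatives were array medians set to 0, quantile normalization, array weights, trended and robust variances, fewer features, the number series or replicate number as a term, other sets of arrays and each array left out. Promoters are RefSeq's.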

Additional observations from a re-analysis of the deposited data

Results flagged for a closer look

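On the array labelled hypothalamus ACTH gratified replicate 6, Oxt stood at 0.15 and Avp at 0.47, each far below the other 5 arrays of the group. The gap to the nearest array was 0.79 of the group's range for Oxt and 0.69 for Avp, above Dixon's critical value of 0.625 for 6 arrays. Both values come from a single array among 20 tests of the 2 genes in 10 groups, and chance gives about 1 in 20.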

How the results depend on the processing

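Of 366 recomputed results under other settings, 348 kept their direction and side of the threshold, 2 lost a call, 3 gained one and 13 turned sign, none of them called (limma adjusted p of 0.934 or higher). Avp in hypothalamus, ACTH gratified against control, passed with array weights (-0.81), all 44 arrays in one fit (-0.76) and the replicate number as a block (-0.47), a block that sets replicate 6 aside because no other group has that number. Same-numbered arrays of a tissue did not deviate together, and the block moved no other call. With 1 array left out this value ran from -0.91 to -0.42, the end nearest 0 without replicate 6 and the far end without replicate 5, both called. Settings combined with the removal of replicate 6, chosen after seeing the data, gave -0.46 (medians set to 0), -0.32 (quantile), -0.45 (weights), -0.47 (block) and -0.42 (both tissues in one fit), each called. With only the 2 groups fitted and replicate 6 out it was -0.42 and not called (limma adjusted p = 0.137). The difference between hypothalamus and brain with ACTH gratified, with only these groups fitted, was 1.86 for Oxt and 1.65 for Avp and lost both calls. Signs turned with array medians set to 0 for Avp furosemide against control (-0.026), Oxt furosemide gratified against furosemide in hypothalamus (0.0030) and Oxt ACTH gratified against ACTH in brain (0.032, and 0.020 with the replicate block). With quantile normalization they turned for the first of these (-0.053) and for furosemide gratified against furosemide in hypothalamus (0.050 for Oxt and 0.053 for Avp). With the number series as a term they turned for furosemide gratified in hypothalamus, against control (0.0020 for Oxt and 0.0015 for Avp) and against furosemide (0.0077 for Oxt and 2.7e-05 for Avp), and in brain for Oxt against control (0.047) and Avp against furosemide (0.043). The cause of these changes was not tested. The series term could not be fitted for ACTH against control.

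With arrays left out, 45 of 702 values turned sign, none called. In hypothalamus, furosemide against control ran from -0.058 to 0.074 for Oxt and from -0.039 to 0.055 for Avp, furosemide gratified against control from -0.061 to 0.053 for Oxt and from -0.065 to 0.034 for Avp, and furosemide gratified against furosemide from -0.082 to 0.039 for Oxt and from -0.067 to 0.033 for Avp. In brain, ACTH gratified against ACTH ran from -0.073 to 0.048 for Oxt, and for Avp ACTH against control from -0.029 to 0.081 and furosemide gratified against control from -0.0090 to 0.14. Oxt minus Avp ran from -0.045 to 0.061 (ACTH, hypothalamus minus brain), from -0.13 to 0.11 (brain furosemide gratified against furosemide), from -0.020 to 0.039 (hypothalamus ACTH against control), from -0.013 to 0.025 (hypothalamus furosemide gratified against control), from -0.017 to 0.037 (hypothalamus furosemide gratified against furosemide) and from -0.034 to 0.019 (hypothalamus furosemide against control).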
